A study of Mus musculus with 10 samples.

Results

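The antioxidant and ferritin genes described here are *Hmox1*, *Nqo1*, *Gclc*, *Gclm*, *Prdx1*, *Txnrd1*, *Sod1*, *Sod2*, *Fth1* and *Ftl1*. They were chosen by symbol, with earlier results of these data known, and make up 10 of the 55359 genes in the authors' table. All 10 passed the filter on low values (a mean FPKM of at least 0.5, where FPKM is a read count divided by transcript length and library size) and were among the 13548 genes tested. The cells were C2C12, a mouse myoblast line that forms multinucleated myotubes when serum is reduced. One group of 5 libraries received an siRNA against *Fndc1* (si-*Fndc1*), a gene for a protein with fibronectin type III domains, and the other 5 a control siRNA (si-Control). Both groups were kept in 2% horse serum for 4 days according to the labels, whereas the description of the series gives an earlier time point and an siRNA dose of 100 nM. No label says that the libraries of a group came from separate cultures, so the p-values measure only the spread between these libraries, which may be technical.

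Cells meet oxidants and free iron with a shared set of proteins. Under oxidative stress the transcription factor NRF2 (gene *Nfe2l2*) escapes its inhibitor KEAP1 and, with a small MAF partner, binds antioxidant response elements in front of genes for glutathione synthesis, the thioredoxin system, quinone reduction and heme breakdown. Heme breakdown releases iron, and ferritin, a shell of heavy (FTH1) and light (FTL1) chains, stores it. Ferritin is set largely after transcription, since iron regulatory proteins bind a stem-loop in the 5′ UTR of its mRNAs when iron is scarce and block translation.

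Between 66771605 and 75995168 reads were counted for a si-Control library, and between 56332844 and 72839369 for a si-*Fndc1* library. *Fndc1* itself lay at 27.8 ± 2.04 FPKM in si-Control and 20.9 ± 1.70 in si-*Fndc1* (SD, n = 5 each), without overlap (log2 fold change -0.40, adjusted p = 0.000934, edgeR). Once corrected for GC content and length (below) it was -0.21 (95% interval -0.32 to -0.10, adjusted p = 0.0128). The 10 muscle markers, with desmin and myogenin among them, summed to between 2266 and 2531 FPKM in si-Control and between 2208 and 2527 in si-*Fndc1*. At an adjusted p under 0.05, 3 rose and 0 fell (30% and 0%, beside 17.3% and 17.2% of all tested genes). Once corrected for GC content and length, 4 rose and 1 fell (40% and 10%, beside 12.2% and 10.3% of the genes in that fit). The 14 hepatocyte markers, with albumin and the apolipoproteins, summed to at most 6.37 FPKM in a si-Control library and to at least 54.6 FPKM in a si-*Fndc1* library (up to 189), and all 13 that were tested rose. In si-*Fndc1* libraries 1 to 5 the sums were 106, 189, 184, 184 and 54.6 FPKM. These transcripts do not belong to the labelled cell type, they separated the groups in the same way as the siRNA, and their part in the results below was not tested. Of the 6 macrophage markers, *Ptprc* and *Adgre1* had no count in any library, and the list summed to 4.30 to 5.05 FPKM in the controls and 3.81 to 4.94 FPKM in the knockdown. The 6 erythroid markers summed to 0.660 to 1.83 and 1.69 to 2.53 FPKM. Across 11185 genes, which share their libraries, fold changes also ran with the GC content of the longest transcript (Spearman's rho = -0.52, a description). Values from a fit corrected for GC content and length are therefore given beside the others.

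In si-*Fndc1*, the ferritin heavy chain, heme oxygenase 1, peroxiredoxin 1 and both intracellular superoxide dismutases rose, and none of the 10 genes fell. *Prdx1* rose most, to 1.49-fold (95% interval 1.31 to 1.70), followed by *Fth1* (1.33-fold, 1.24 to 1.42), *Sod1* (1.22-fold, 1.15 to 1.30), *Sod2* (1.16-fold, 1.04 to 1.31) and *Hmox1* (1.16-fold, 1.06 to 1.26), whereas once corrected for GC content and length *Fth1* stood first (log2 fold change 0.45), *Sod1* next (0.39) and *Prdx1* after them (0.35). The ferritin light chain, both subunits of glutamate-cysteine ligase, thioredoxin reductase 1 and NQO1 did not pass the test. Of all tested genes, 34.4% were called at an adjusted p under 0.05, with 17.3% higher and 17.2% lower in si-*Fndc1*, against 5 (higher) and 0 (lower) of these 10. Their median log2 fold change was 0.25, beside 0.0043 over all tested genes. With correction for GC content and length 4 remained higher and 0 were lower, beside 12.2% higher and 10.3% lower of the 11185 genes in that fit. The call lost was that of *Sod2* (adjusted p = 0.114), whose groups also overlapped. The corrected median of the 10 genes was 0.16, beside 0.0061 over the genes in that fit. In 4 of the 10 (*Fth1*, *Hmox1*, *Prdx1* and *Sod1*) every si-*Fndc1* library lay above every si-Control library, which held for 12.1% of all tested genes.

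**Figure D1:**
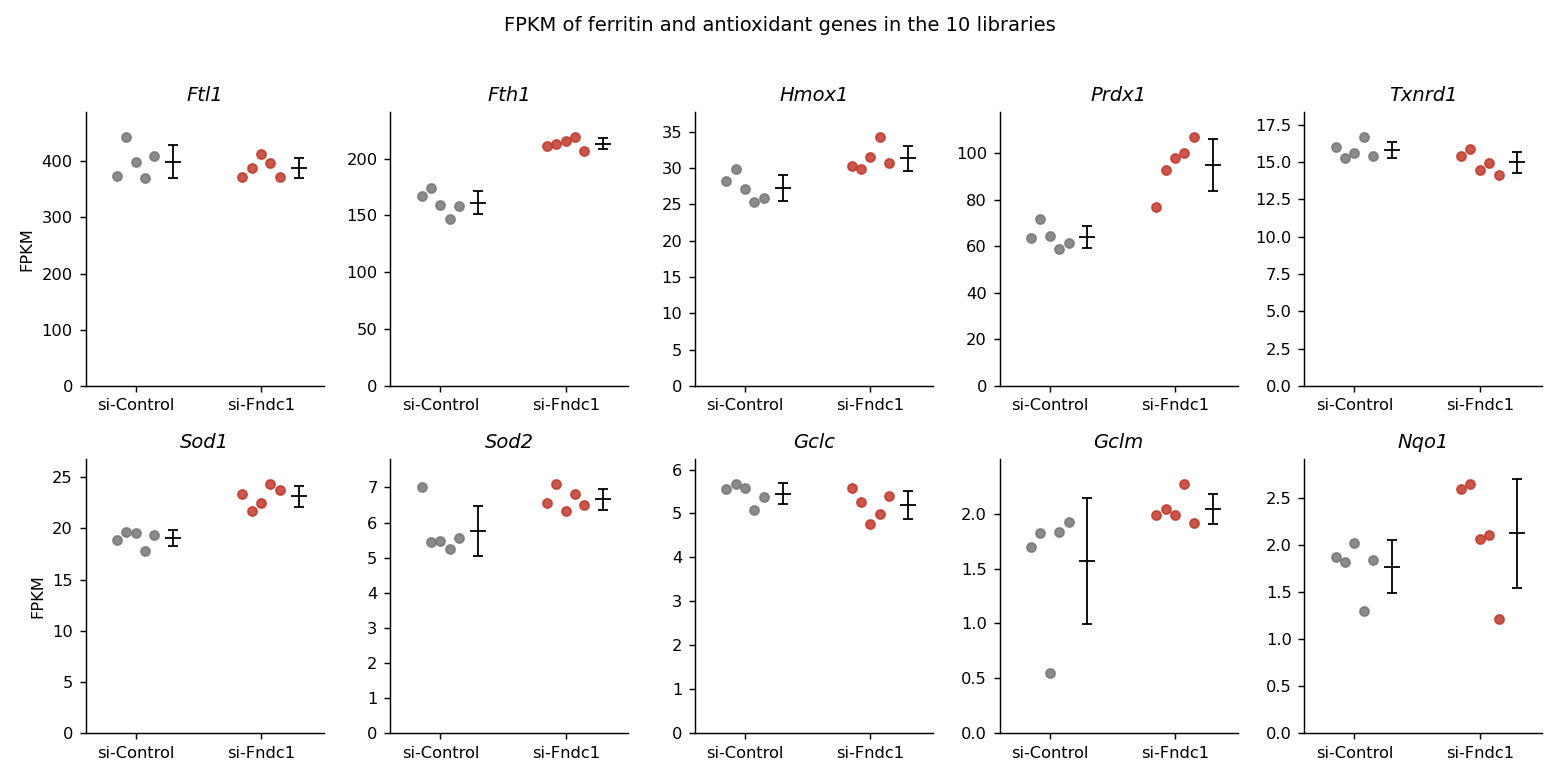
FPKM of each of the 10 genes (vertical axis, starting at 0) in the 5 si-Control (grey) and 5 si-Fndc1 (red) libraries, from library 1 at the left to library 5 at the right of each group. Black marks give the mean and SD. The groups stand apart in Fth1 (147 to 174 against 207 to 219 FPKM) and Prdx1 (58.7 to 71.4 against 76.7 to 107 FPKM), and overlap in Ftl1.

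**Figure D2:**
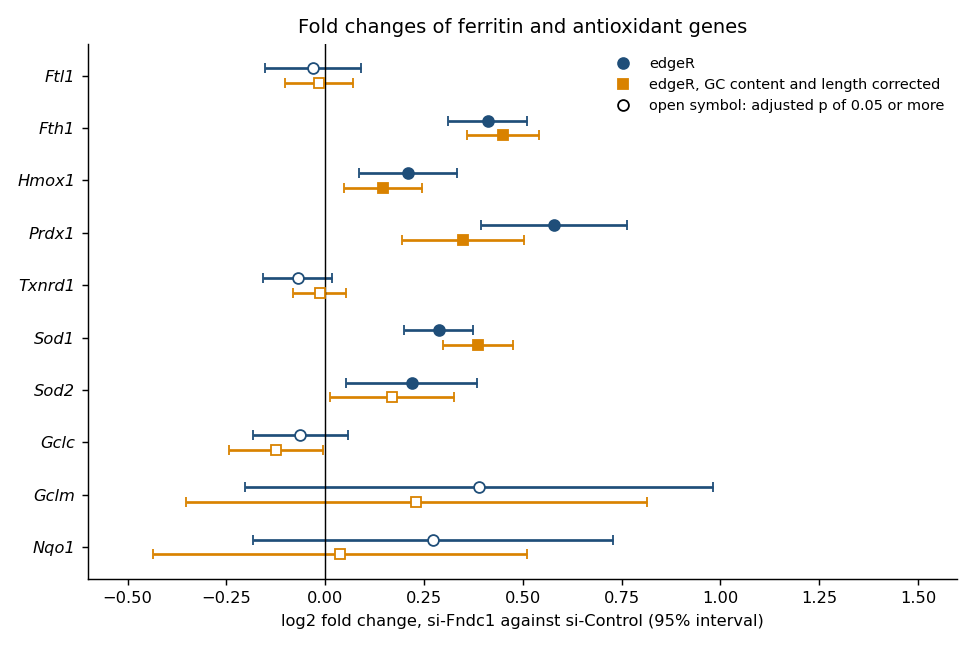
The log2 fold change of each gene (horizontal axis) in si-Fndc1 against si-Control with its 95% interval, from edgeR without (blue circles) and with (orange squares) a correction for GC content and length. Symbols are open where the adjusted p was 0.05 or more. The correction lowered Prdx1 from 0.58 to 0.35, raised Sod1 from 0.29 to 0.39, and ended the call of Sod2.

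The ferritin chains are shown first because both carry the iron responsive element, the stem-loop bound by iron regulatory proteins. Their fold changes differed, but the element, as described above, acts on translation, which read counts do not measure. The stretch of 30 bases around its CAGTG loop (in capitals) was read from the mouse build NCBIM37 at chr19:10057222-10057251, plus strand, for *Fth1*, and at chr7:52715148-52715177, minus strand, for *Ftl1*. Both lie in the 5′ UTR, at bases 30 to 59 of the *Fth1* transcript and 78 to 107 of the *Ftl1* transcript. They are printed 5′ to 3′:
*Fth1*: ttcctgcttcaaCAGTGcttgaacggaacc
*Ftl1*: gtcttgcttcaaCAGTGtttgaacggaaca
The windows share 26 of 30 bases. CAGTG alone is common, being present on the sense strand of the annotated 5′ UTRs of 31.4% of 19945 genes, and 11.8% hold it with a C spaced 5 bases before it (CNNNNNCAGTG), as both windows do. A match of these letters is not evidence of binding.

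*Fth1* encodes the heavy chain, the subunit that oxidizes iron on its way into the shell (chromosome 19, 9957962 to 9962456 as listed by the authors). Its level was 167, 174, 159, 147 and 158 FPKM in si-Control libraries 1 to 5, and 211, 213, 216, 219 and 207 FPKM in the si-*Fndc1* libraries. The groups did not overlap, and the si-*Fndc1* libraries lay closer to each other than the controls did. This gave a log2 fold change of 0.41 (SE 0.04, adjusted p = 9.06e-05), and 0.45 (adjusted p = 5.97e-05) after correction for GC content and length. *Fth1* passed the test under all 22 alternatives, from 0.27 to 0.45 in log2 fold change and with adjusted p from 3.29e-14 to 0.00365.

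*Ftl1*, the light chain, which favours iron mineral formation inside the shell, was the most abundant of the 10 genes by the authors' FPKM. It lay at 375, 443, 399, 369.7 and 410.2 FPKM in si-Control and at 372, 388, 413, 398 and 372 FPKM in si-*Fndc1*. The groups overlapped widely, and all si-*Fndc1* values fell within the range of the controls. Its log2 fold change was -0.03 (95% interval -0.15 to 0.09, adjusted p = 0.700), an interval that leaves out the value of *Fth1*, and it was -0.02 after correction. After quantile normalization, with limma, *Ftl1* was called lower (log2 difference -0.24, adjusted p = 0.00335, where adjusted p ran from 0.00335 to 0.923 over the 22 alternatives).

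Another annotated gene lies over a short stretch of *Ftl1*. The authors' table lists a miRNA gene without a symbol (ENSMUSG00002076377) on the same strand inside *Ftl1*, at chromosome 7, 45107513 to 45107621, a span of 109 bases. It held 2692 to 3363 counts in the controls and 3718 to 4901 in the knockdown, and its log2 fold change was 0.59 (SE 0.07, adjusted p = 0.000105). This gene was looked at after its values were seen, and whether its reads came from *Ftl1* mRNA was not tested. Of the reads of both genes together it held between 6.30% and 6.99% in the controls and between 9.21% and 10.7% in the knockdown, and both summed gave a log2 difference of 0.02 in scaled counts. Pseudogenes of *Ftl1* held at most 3.21% of its count, and those of *Fth1* at most 0.0183%.

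The ratio of *Fth1* to *Ftl1* FPKM within a library does not depend on the scaling of that library. It was 0.404 ± 0.0241 in si-Control and 0.549 ± 0.0163 in si-*Fndc1* (SD, n = 5 each), with ranges of 0.385 to 0.446 and 0.523 to 0.567 that did not meet. The log2 difference was 0.44 (two-sided exact permutation p = 0.00794, the smallest that 5 against 5 libraries can give, and 0.0238 after adjustment over 3 ratios). It stayed between 0.43 and 0.48 when any 1 library was left out, with an adjusted exact p of 0.0476. That p could not have come out otherwise, since the full groups did not meet, and it adds no support. The level of this ratio, like that of the ratios below, depends on the transcript lengths behind FPKM. Per longest transcript in GENCODE vM1, *Fth1* lay above *Ftl1* in si-Control (717 against 614) and in si-*Fndc1* (950 against 599).

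**Figure D3:**
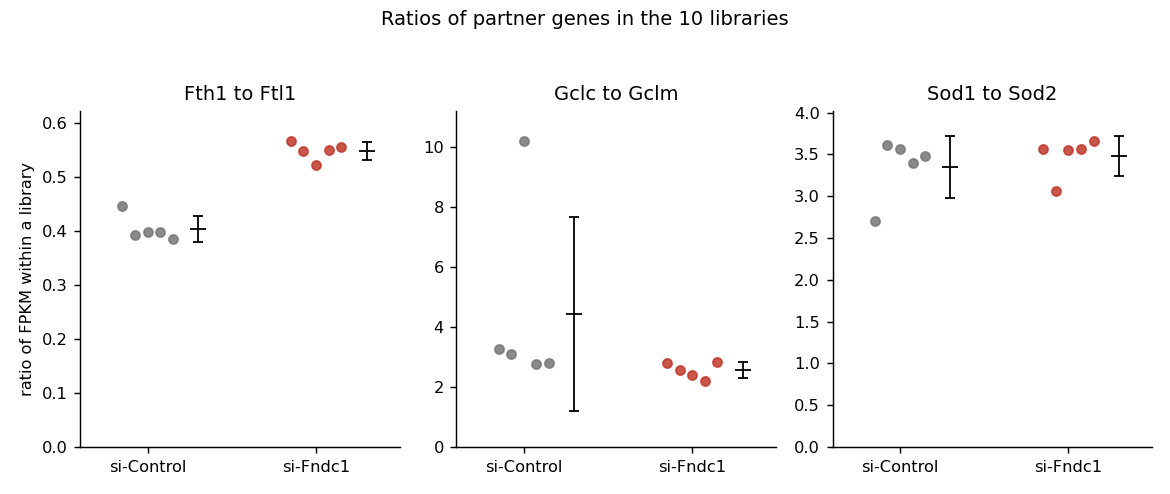
Ratios of FPKM within a library (vertical axes, starting at 0, no unit) for the ferritin chains, the glutamate-cysteine ligase subunits and the superoxide dismutases, in the 5 si-Control (grey) and 5 si-Fndc1 (red) libraries, with mean and SD in black. The ratio of Fth1 to Ftl1 separates the groups, whereas the lone si-Control library at 10.2 sets the wide spread of Gclc to Gclm.

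*Hmox1* encodes heme oxygenase 1, the inducible enzyme that splits heme into biliverdin, carbon monoxide and iron. It lay at 28.2, 29.8, 27.1, 25.3 and 25.9 FPKM in si-Control and at 30.3, 29.96, 31.6, 34.3 and 30.7 FPKM in si-*Fndc1*. The groups did not overlap, but the lowest si-*Fndc1* library lay just above the highest control. *Hmox1* had a log2 fold change of 0.21 (SE 0.06, adjusted p = 0.0147), and 0.15 (adjusted p = 0.0393) after correction. Over the 22 alternatives it ran from 0.15 to 0.24, with adjusted p from 0.00435 to 0.106.

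*Prdx1*, a cytosolic peroxiredoxin that reduces hydrogen peroxide with electrons from thioredoxin, had the largest fold change of the 10 before correction and the third after it. It lay at 63.6, 71.4, 64.2, 58.7 and 61.2 FPKM in si-Control, and at 76.7, 92.8, 97.9, 99.8 and 107 FPKM in si-*Fndc1*. All si-*Fndc1* libraries were above all controls, with library 1 nearest to them. On the log2 scale the change was 0.58 (SE 0.08, adjusted p = 0.000433), and 0.35 (adjusted p = 0.00542) after correction for GC content and length. Its longest transcript in GENCODE vM1 holds 42.3% GC, below the median of 50.5% over the genes in that fit.

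*Txnrd1* encodes cytosolic thioredoxin reductase, the selenoenzyme that recharges thioredoxin with NADPH. It lay at 16.0, 15.3, 15.6, 16.7 and 15.4 FPKM in si-Control and at 15.4, 15.9, 14.5, 14.9 and 14.1 FPKM in si-*Fndc1*. The lowest 3 values were all in si-*Fndc1*, and the other two si-*Fndc1* libraries lay among the controls. The change was -0.07 on the log2 scale (95% interval -0.16 to 0.02, adjusted p = 0.198), so that a rise of the size seen in *Prdx1* lay outside its interval, and -0.01 after correction.

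The superoxide dismutases turn superoxide into hydrogen peroxide, *Sod1* as a copper-zinc enzyme mostly in the cytosol and *Sod2* as a manganese enzyme in mitochondria. *Sod1* lay at 18.9, 19.7, 19.5, 17.8 and 19.3 FPKM in si-Control and at 23.4, 21.7, 22.5, 24.3 and 23.8 FPKM in si-*Fndc1*, and the groups did not overlap. Its log2 fold change was 0.29 (SE 0.04, adjusted p = 0.000348), rose to 0.39 after correction (adjusted p = 0.000112), and passed the test under all 22 alternatives. *Scaf4*, on the opposite strand, overlaps *Sod1* in the authors' annotation and went the other way (log2 fold change -0.40, adjusted p = 0.000597). Whether counting used the strand is not stated, and reads of such partners cannot then be told apart.

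*Sod2* lay at 7.01, 5.45, 5.48, 5.24 and 5.56 FPKM in si-Control, and at 6.56, 7.09, 6.32, 6.82 and 6.50 FPKM in si-*Fndc1*. Library 1 of si-Control stood among the si-*Fndc1* libraries, and the other 4 controls were below all of them. *Sod2* had a log2 fold change of 0.22 (SE 0.08, adjusted p = 0.0448). The call was lost under 15 of the 22 alternatives, with adjusted p from 0.000774 to 0.159. It was lost after correction for GC content and length (0.17, adjusted p = 0.114) and when any library other than si-Control 1 was left out, with adjusted p up to 0.0982. Without si-Control library 1 the log2 fold change was 0.30 (adjusted p = 0.000774). The ratio of *Sod1* to *Sod2* was 3.35 ± 0.372 in si-Control and 3.48 ± 0.237 in si-*Fndc1* (SD, n = 5 each), with a log2 difference of 0.06 that did not pass the test (exact permutation p = 0.508, the same after adjustment). After the correction the difference was 0.21, with an adjusted exact permutation p of 0.0595.

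Glutamate-cysteine ligase makes the first and rate-limiting step of glutathione synthesis from a catalytic subunit (*Gclc*) and a modifier subunit (*Gclm*). *Gclc* lay at 5.56, 5.67, 5.59, 5.08 and 5.37 FPKM in si-Control and at 5.57, 5.26, 4.76, 4.98 and 5.40 FPKM in si-*Fndc1*. The groups overlapped (log2 fold change -0.06, 95% interval -0.18 to 0.06, adjusted p = 0.401, and -0.12 after correction). *Gclm* lay at 1.70, 1.83, 0.548, 1.84 and 1.93 FPKM in si-Control and at 1.99, 2.05, 1.99, 2.27 and 1.92 FPKM in si-*Fndc1*. Library 3 of si-Control stood far below the other 9, and apart from it the groups met only at their edges.

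The log2 fold change of *Gclm* was 0.39 with a wide interval (-0.20 to 0.98, adjusted p = 0.290) and 0.23 after correction, and without si-Control library 3 it was 0.17 (adjusted p = 0.0904), where adjusted p ran from 0.0904 to 0.580 over the alternatives. The ratio of *Gclc* to *Gclm* was 4.42 ± 3.23 in si-Control and 2.55 ± 0.268 in si-*Fndc1* (log2 difference -0.58, exact permutation p = 0.0476, 0.0714 after adjustment). That ratio did not pass the adjusted threshold, and without si-Control library 3 its log2 difference was -0.23. A long noncoding RNA on the opposite strand, *Gm17494*, overlaps *Gclm* and held more reads than it in every library, with 1321 to 6589 counts in si-Control, 2602 of them in library 3, and 3347 to 10220 in si-*Fndc1* (log2 fold change 0.82, adjusted p = 0.160).

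*Nqo1*, a quinone reductase often used as a reporter gene of NRF2 activity, was low in these cells. It lay at 1.87, 1.82, 2.03, 1.29 and 1.84 FPKM in si-Control and at 2.60, 2.65, 2.07, 2.11 and 1.21 FPKM in si-*Fndc1*. In si-*Fndc1*, 4 libraries were above every control and library 5 was below every control. *Nqo1* had a log2 fold change of 0.27 (95% interval -0.18 to 0.73, adjusted p = 0.336). It was 0.42 without si-*Fndc1* library 5 (adjusted p = 0.0591) and 0.04 after correction for GC content and length, and adjusted p ran from 0.0591 to 0.999 over the alternatives.

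By the authors' FPKM the levels in si-Control ran from *Ftl1* (399 ± 29.7, SD, n = 5) through *Fth1* (161 ± 10.1), *Prdx1* (63.8 ± 4.78), *Hmox1* (27.3 ± 1.82), *Sod1* (19.1 ± 0.741), *Txnrd1* (15.8 ± 0.558), *Sod2* (5.75 ± 0.712), *Gclc* (5.45 ± 0.233) and *Nqo1* (1.77 ± 0.278) to *Gclm* (1.57 ± 0.576). The pair *Sod2* and *Gclc* and the pair *Nqo1* and *Gclm* did not differ beyond their spread, whereas the other neighbours in this order did not overlap. The order depends on the length used. The authors' FPKM implied 3857 bases for *Fth1* and 4415 for *Sod1*, whose longest transcripts in GENCODE vM1 have 866 and 646 bases. On the same scale but per longest transcript, *Fth1* (717 ± 45.1) was above *Ftl1* (614 ± 45.5) in si-Control, and *Sod1* moved above *Prdx1*. Without the correction, fold changes within a gene do not depend on that length. The correction for GC content and length used the lengths implied by FPKM, so that corrected fold changes can depend on them. How they change with other lengths was not tested.

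Antioxidant response elements were looked for in the RefSeq promoters of build GRCm38.p6, from 250 bases before to 50 after each annotated start, which covered 11 starts of 8 of the 10 genes, without *Hmox1* and *Gclc*. The core TGACNNNGC, on either strand, was present in 4 genes, of which *Prdx1* and *Sod1* rose and *Gclm* and *Txnrd1* did not pass the test. It was also present in 12.4% of all 32851 promoters. The windows of 40 bases around it are shown because they set genes that rose beside genes that did not. They lie on the plus strand at chr4:116685450-116685489 (*Prdx1*), chr16:90220690-90220729 (*Sod1*), chr3:122245407-122245446 (*Gclm*) and chr10:82859098-82859137 (*Txnrd1*, at 1 of its 3 starts). Capitals mark the core, which is on the minus strand in all of them and so reads as its reverse complement, GCNNNGTCA:
*Prdx1*: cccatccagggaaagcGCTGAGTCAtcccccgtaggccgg
*Sod1*: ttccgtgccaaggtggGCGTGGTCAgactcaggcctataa
*Gclm*: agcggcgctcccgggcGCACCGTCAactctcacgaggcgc
*Txnrd1*: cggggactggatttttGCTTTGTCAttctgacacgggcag
In *Prdx1* the core begins 133 bases before the start and overlaps the AP-1 motif TGANTCA, which occurs there a second time and is held by 7.81% of promoters. These letters are a description of the windows, and their absence elsewhere says nothing of NRF2.

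The regulators of NRF2 showed no common direction. Of 10 tested, 2 rose (*Nfe2l2* and the ubiquitin ligase subunit gene *Rbx1*) and 3 fell (*Maff*, *Mafk* and *Nfe2l1*), with a median log2 fold change of -0.04 (20.0% and 30%, beside 17.3% and 17.2% of all tested genes). After correction 1 rose and 0 fell (10.0% and 0%, beside 12.2% and 10.3% of the genes in that fit). The shares of the following lists are read against the same figures. *Nfe2l2*, the gene for NRF2, lay at 25.6 FPKM in si-Control and 28.0 in si-*Fndc1* (log2 fold change 0.13, adjusted p = 0.0424). That call was lost after correction (0.05) and when any of si-Control libraries 3, 4 and 5 or si-*Fndc1* libraries 1, 3, 4 and 5 was left out, with log2 fold changes from 0.11 to 0.16 and adjusted p up to 0.0934. The genes for the small MAF proteins MAFF (-0.33) and MAFK (-0.17) fell in log2 fold change, calls that were lost after correction (-0.20 and -0.01). *Nfe2l1*, a related factor, fell by 0.95 on the log2 scale (adjusted p = 0.0451). It stood at 162.7 FPKM in si-Control library 2 and at 48.7 to 59.2 in the other controls, and without that library the value was -0.46 (adjusted p = 0.0186). Its call was lost after correction (-0.82) and when si-Control library 4 or any si-*Fndc1* library was left out (adjusted p up to 0.0940). *Keap1*, the NRF2 inhibitor, gave -0.01, and 0.24 after correction, where it alone of these regulators was called. *Rbx1* gave 0.16, and 0.09 after correction, where it was no longer called. *Bach1*, a repressor of *Hmox1*, gave 0.05 (0.02 after correction) and did not pass the test.

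Among 16 further NRF2 targets, 6 rose and 2 fell (37.5% and 12.5%, median log2 fold change 0.13), and 4 and 1 did after correction (25.0% and 6.25%). The highest fold changes among the called genes were those of glutathione transferases, *Gstm1* from 6.58 to 9.72 FPKM (log2 fold change 0.57) and *Gstp1* from 43.5 to 59.0 (0.45), and both held after correction (0.49 and 0.40), while another transferase of the list, *Gsta4*, did not pass the test (0.09, and -0.11 after correction). *Me1*, an enzyme that makes NADPH, also rose (0.29, and 0.17 after correction). *Txn1*, the thioredoxin that feeds *Prdx1*, rose from 146 to 179 FPKM (0.30), but this was 0.01 after correction and no longer called. *Abcc1*, an exporter of glutathione conjugates, fell (-0.34, and -0.13 after correction), and so did *Pgd* of the pentose phosphate pathway (-0.13), whose value turned to 0.02 after correction. *Slc7a11*, the cystine importer, and *Srxn1*, sulfiredoxin, gave 0.53 (SE 0.51, and 0.48 after correction) and 0.06 (0.09) and did not pass the test. Leaving out 1 library moved *Slc7a11* between 0.32 (si-*Fndc1* 4) and 0.81 (si-*Fndc1* 1), and *Srxn1* between 0.019 (si-Control 2) and 0.11 (si-Control 1).

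Of 14 glutathione enzymes tested out of 16, 4 rose and 2 fell (28.6% and 14.3%, median 0.15), and 5 rose and 1 fell after correction (35.7% and 7.14%). The falls were *Glrx5* and *Oplah* without correction, neither of them called with it, and *Gpx8* with it (0.15 without, where it was not called, and -0.21 with). *Mgst1* (log2 fold change 0.70, and 0.46 after correction) and *Mgst3* (0.46, and 0.27), microsomal glutathione transferases, rose together with *Gpx3*, a secreted glutathione peroxidase, which went from 18.5 to 25.7 FPKM (0.48, and 0.49). *Glrx5*, a mitochondrial glutaredoxin of iron-sulfur cluster assembly, fell (-0.29), and this call was lost after correction (-0.12). *Gpx4*, which reduces lipid peroxides, gave -0.11 (-0.01 after correction) and was called only after quantile normalization (-0.24, adjusted p = 0.000942, with limma). Of 17 other peroxidase, thioredoxin and superoxide enzymes, 3 rose and 2 fell (17.6% and 11.8%, median 0.04), and 2 and 1 did after correction (11.8% and 5.88%), so that the share that rose was near that of all genes in both fits. Catalase (*Cat*) rose from 21.3 to 29.7 FPKM (0.49, and 0.38 after correction) and *Prdx6* rose by 0.19 (0.15), whereas *Prdx3*, the mitochondrial peroxiredoxin, went from 0.27 to -0.01 with the correction. *Msrb1*, a methionine sulfoxide reductase, fell from 30.8 to 23.6 FPKM (-0.37, and -0.44 after correction). The other fall was that of *Sesn2* (-0.31), lost after correction (-0.11) and when any library other than si-Control 5 or si-*Fndc1* 4 was left out (adjusted p up to 0.0895).

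**Figure D4:**
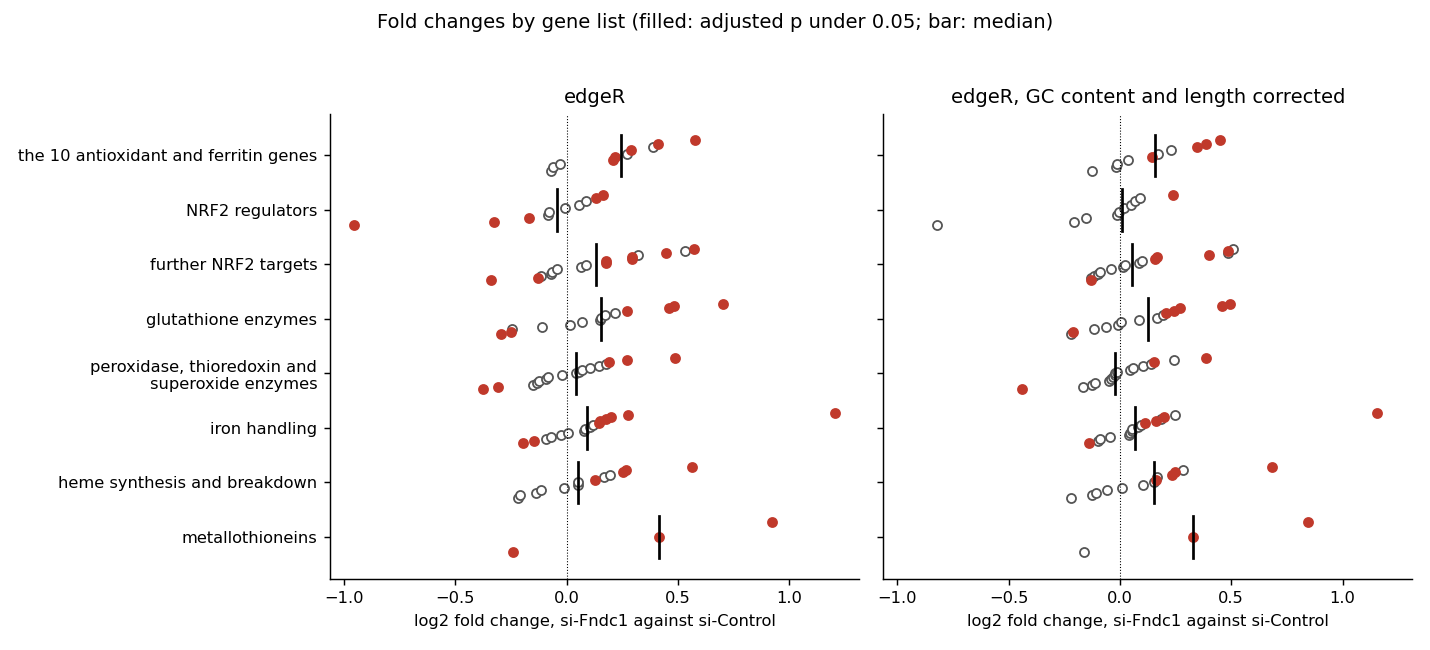
The log2 fold change in si-Fndc1 against si-Control (horizontal axis) of every tested gene in 8 lists (vertical axis), from edgeR (left) and with the correction for GC content and length (right). Filled points had an adjusted p under 0.05 and black bars are list medians. The median of the 10 antioxidant and ferritin genes is 0.25 at the left and 0.16 at the right.

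Iron handling genes, read here beside the ferritins, gave 6 rises and 2 falls among 16 tested of 17 (37.5% and 12.5%, median 0.09), and 4 and 1 after correction (25.0% and 6.25%). *Ncoa4*, the receptor that carries ferritin to lysosomes for breakdown, rose from 2.59 to 5.95 FPKM (log2 fold change 1.21, SE 0.25, adjusted p = 0.00401, and 1.15 after correction). *Tfrc*, the transferrin receptor, whose mRNA is stabilized by iron regulatory proteins, rose from 20.0 to 24.1 FPKM (0.28, adjusted p = 9.91e-05), and this call was lost after correction (0.08, with adjusted p from 1.31e-11 to 0.136 over the alternatives). *Slc11a2*, an importer of ferrous iron, fell (-0.20, and -0.14 after correction) and *Pcbp2*, an iron chaperone, rose (0.18, and 0.11). The genes of the iron regulatory proteins moved apart, *Ireb2* up by 0.20 and *Aco1* down by 0.15 on the log2 scale, and both calls were lost after correction (0.05 and -0.10). That of *Aco1* was also lost when any of si-Control libraries 2, 3 and 5 or si-*Fndc1* libraries 1, 2 and 3 was left out, with adjusted p up to 0.0740.

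Of 13 genes of heme synthesis and breakdown, 4 rose and 0 fell in each fit (30.8%, with a median of 0.05, and 0.15 after correction). These were not the same 4, since the call of *Flvcr1* was lost with the correction. Beside *Hmox1*, the constitutive heme oxygenase *Hmox2* rose from 14.7 to 17.6 FPKM (log2 fold change 0.26, and 0.16 after correction), as did *Blvrb*, a biliverdin reductase, from 2.21 to 3.25 (0.56, and 0.68). *Alas1*, the first enzyme of heme synthesis, rose by 0.13 on the log2 scale (0.25 after correction), a call lost when any of si-Control libraries 2 to 5 or si-*Fndc1* libraries 1, 2, 4 and 5 was left out (adjusted p up to 0.0874). *Flvcr1*, a heme exporter, gave 0.25, a call lost after correction (0.17) and when any of si-Control libraries 3 to 5 or si-*Fndc1* libraries 3 and 5 was left out (adjusted p up to 0.0869). The metallothioneins *Mt1* (0.41) and *Mt2* (0.92, from 4.42 to 8.35 FPKM), which bind zinc and copper, rose and held after correction (0.33 and 0.85). Their transcription factor *Mtf1* fell (-0.24), a call lost after correction (-0.16) and, narrowly, without si-Control library 3 (adjusted p = 0.0508, with adjusted p from 0.00520 to 0.104 over the alternatives).

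Over the 7 lists together, 27 of 89 tested genes rose (30.3%, beside 17.3% of all tested genes) and 12 fell (13.5%, beside 17.2%), with a median log2 fold change of 0.07. After correction 22 rose (24.7%, beside 12.2%) and 4 fell (4.49%, beside 10.3%). Since the lists were chosen with earlier results of these data known, the shares only describe the genes in them. Several of these genes are also expressed in liver, and the hepatocyte marker sums given above moved with the same groups. In bulk libraries fewer cells of a type and less RNA per cell cannot be told apart.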

How the data were processed

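RNA of 10 C2C12 libraries (5 si-*Fndc1*, 5 si-Control) was sequenced. The paper's methods name 4 libraries without saying which, so that it is not known which of the 10 they describe, and all 10 were used. The authors deposited read counts per gene without normalization, and an FPKM value beside each count, whose calculation is not given in the sources used here. For the alignment the methods name TopHat with mm10 (counting by htseq-count), the series description names STAR with mm9, and the submitters' processing notes GRCm39, cutadapt 1.9 and FastQC. Coordinates of genes were printed as the authors list them. Whether counting used the strand is not stated.

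Groups and replicate numbers were taken from the labels. Counts were tested by the quasi-likelihood test of edgeR 4.0.16 with TMM normalization (R 4.3.3) for genes whose mean FPKM reached 0.5, with Benjamini-Hochberg adjustment over the 13548 tested genes and a threshold of 0.05. All adjusted p-values without another name are edgeR's. Log2 fold changes are si-*Fndc1* against si-Control. Ratios within libraries were tested by two-sided exact permutation over libraries. The alternatives were DESeq2 1.42.0, other scalings and filters, a replicate block, a correction for GC content and length (splines by Huber regression, for the 11185 genes with both values), limma 3.58.1 on log2(FPKM + 1), log2(FPKM + 0.1) and quantile-normalized values, and each library left out. The same 11185 genes without the correction, and levels per longest transcript, were added after seeing the data. For the correction, GC content came from the longest protein-coding transcript of a gene in GENCODE vM1, and length from count and FPKM. Tables were handled in Python 3.11.15 (numpy 2.4.6, pandas 2.3.3, scipy 1.17.1), and the fits were tested on simulated data.

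The genes and lists were chosen with earlier results of these data known. From each list the text names up to 4 called genes with the smallest p, and a few set genes whether called or not (*Nfe2l2*, *Keap1*, *Bach1*, *Tfrc*, *Ireb2*, *Aco1*, *Txn1*, *Cat*, *Gpx4*, *Slc7a11*, *Srxn1* and *Hmox2*). *Nfe2l1*, *Pgd*, *Sesn2*, *Gsta4*, *Gpx8*, *Oplah*, *Idh1* and the genes that overlap a member were named after their values were seen. Within each group, counts of every pair of libraries differed beyond counting error (chi-square over degrees of freedom 39.97 or higher), and none was treated as a repeat of another. The replicate numbers did not pair the libraries: correlations of deviations from the group means between libraries of the same number ran from -0.05 to 0.06.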

Additional observations from a re-analysis of the deposited data

Results flagged for a closer look

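Of 112 groups of 5 values (genes named here, and ratios), 17 held a library whose gap to its nearest neighbour exceeded 0.71 of the group's range (Dixon's test), and chance alone gives about 1 in 20. Among the 10 genes these were *Gclm* in si-Control 3 (0.548 FPKM, the others 1.70 to 1.93), *Nqo1* in si-Control 4 (1.29 FPKM, the others 1.82 to 2.03) and *Sod2* in si-Control 1 (7.01 FPKM, the others 5.24 to 5.56). Library si-Control 1 also stood apart in the ratio of *Fth1* to *Ftl1* (0.446, the others up to 0.399), where it lay nearest to si-*Fndc1*, and in the ratio of *Sod1* to *Sod2* (2.70). The ratio of *Gclc* to *Gclm* was far above the rest in si-Control 3 (10.2), and that of *Sod1* to *Sod2* was below the rest in si-*Fndc1* 2 (3.06).

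Among the other genes, si-Control 1 was the low library of *Slc7a11* (1.22 FPKM, the others 2.82 to 3.19) and *Gpx3* (16.6 FPKM), and si-Control 2 was the high library of *Rbx1* (23.5 FPKM), *Txn1* (160.1 FPKM), *Gpx8* (75.4 FPKM) and *Nfe2l1* (162.7 FPKM, the others 48.7 to 59.2). *Hmox2* was low in si-Control 3 (14.0 FPKM). In si-*Fndc1*, *Nfe2l2* was low in library 2 (26.4 FPKM), *Mt2* was high in library 1 (10.3 FPKM) and *Srxn1* was high in library 5 (6.41 FPKM). No single library was the odd one in most of these genes.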

How the results depend on the processing

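*Fth1*, *Prdx1* and *Sod1* kept their calls under all 22 alternatives. With the replicate block 3 of the 10 genes were called, all higher, and likewise 3 with the block and the correction for GC content and length together. *Hmox1* lost its call in both (adjusted p = 0.062 and 0.106). Leaving out 1 library gave 4 to 5 called, 4 to 5 higher and 0 lower. With quantile-normalized values 1 was lower (*Ftl1*). The filter at 5 FPKM removed *Nqo1* and *Gclm*. Over all genes, the block gave 3572 calls, the correction 2517 (1360 higher, 1157 lower), and both together 1650 (911 higher, 739 lower), against 4663. On those 11185 genes the count went from 4244 to 2517 with the correction. Leaving out 1 library gave 4000 to 4627 calls, 2022 to 2321 higher and 1978 to 2321 lower.

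The ratio of *Fth1* to *Ftl1* kept its call throughout, which was fixed for the fits without 1 library, since the groups did not meet. That of *Gclc* to *Gclm* ran from -0.70 to -0.23 without 1 library. That of *Sod1* to *Sod2* ran from -0.015 (without si-Control 1) to 0.11, and to 0.21 with the correction (adjusted exact permutation p = 0.0595). Signs turned in *Ftl1* (0.0075 without si-Control 2, and down to -0.059 without another library), in *Keap1* (0.24 with the correction, 0.24 with the block too, and from -0.041 to 0.018 without 1 library, above 0 without si-Control 3 or si-*Fndc1* 3, 4 or 5), and, with the correction and with the block too, in *Pgd* (0.024 and 0.025), *Gpx8* (-0.21), *Gsta4* (-0.115 and -0.117), *Idh1* (-0.038), *Oplah* (0.0049 and 0.0057) and *Prdx3* (-0.013). With the correction 16 of the 89 pathway genes turned in sign, 6 of them called in either fit. The cause was not tested. Of the 39 called genes of the pathway lists, 14 were called under every alternative and 18 were lost with the correction. Over all genes the spread between libraries was larger than counting error.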
